A study of Mus musculus with 51 samples.

Results

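The genes described here encode the proteins of the mitochondrial ribosome, and were chosen by symbol alone: those that begin with Mrpl or Mrps followed by a number, with pseudogene symbols left out. Of 13831 genes in either deposited table, 75 met the rule, and 1 pseudogene symbol was dropped. The table of untreated libraries held 64 of them, 40 named for the large subunit (Mrpl) and 24 for the small subunit (Mrps). The table of libraries from immune checkpoint blockade held all 75, 46 large and 29 small. The 11 genes in the checkpoint table only were Mrpl14, Mrpl20, Mrpl23, Mrpl27, Mrpl34, Mrpl36, Mrps16, Mrps18b, Mrps24, Mrps33 and Mrps34. The GENCODE vM21 annotation lists 78 protein-coding genes with such symbols, and the other 3 were not analysed here. No filter on low values was applied, so every gene in a table was tested.

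Mitochondrial ribosomes are built in the mitochondrial matrix from RNAs encoded in mitochondrial DNA and from proteins that are all encoded in the nucleus, made in the cytosol and imported. They translate only the few messenger RNAs of the mitochondrial genome, whose products are core subunits of the respiratory chain and ATP synthase. Some of their proteins descend from bacterial ribosomal proteins and others were added in the mitochondrial lineage. T cells enlarge their mitochondrial protein synthesis when they are activated, and memory T cells are known for reliance on respiration. The gene symbols do not map perfectly onto the particle: the products of Mrps18a and Mrps30 sit in the large subunit, and that of Mrps36 is a component of the alpha-ketoglutarate dehydrogenase complex. These 3 genes were therefore also counted apart from the other Mrps symbols. Of the large-subunit genes measured in untreated cells, 24 had bacterial counterparts and 16 were mitochondrial additions, and for the small subunit the numbers were 14 and 7.

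The libraries came from mouse CD8+ T cells purified by flow cytometry. Tumor cells were taken from AT3-OVA mammary tumors, grown from a single mammary carcinoma cell line that carries ovalbumin as a model antigen, and were divided by CD103, an integrin chain that binds E-cadherin, and CD69, which keeps T cells from leaving a tissue. CD103+CD69+ cells are called DP here, CD103-CD69+ cells SP and CD103-CD69- cells DN. Untreated tumors gave 13 DP libraries (3, 4, 3 and 3 at weeks 1, 2, 4 and 6), 11 SP libraries (3, 3, 2 and 3) and 10 DN libraries (2, 3, 3 and 2). Spleen gave 3 libraries each of cells labelled Naive, CM and EM, the last 2 names being the usual short forms of central memory and effector memory. The spleen samples carry no treatment and the time label Cntrl, and their labels also name AT3-OVA. Tumors of day 40 under immune checkpoint blockade gave 3 DP, 3 SP and 2 DN libraries in a table of their own. Strain, age, the blocking agents and whether a library came from 1 animal or a pool are not given in the sources used here, so p-values measure only the spread between these samples. The 2 tables were analysed apart, and no comparison of treated with untreated tumors was made.

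All values are on the scale of the deposited tables, read as log2, and differences are first group minus second. Depth per library is unknown because no read counts were used, so no counting interval can be given. In the untreated table levels cannot be compared between genes: the mean values of the 64 genes ran from -6.93 for the lowest to 15.05 for Mrps10, which is no order of abundance. A bulk library also cannot tell apart fewer cells expressing a gene and less RNA per cell. All 15 genes of a T-cell identity list were measured in both tables. Their median, each gene centred on its mean over the libraries, lay between -0.71 and -0.63 in the 3 DP libraries of week 1 and between -0.13 and 0.36 in every other library. A list of 6 measured epithelial genes stood between 2.15 and 3.26 in those 3 libraries, between 1.59 and 2.39 in SP of week 1 and between -1.61 and -0.75 in DN of week 1. The DN week 4 replicates 1 and 2 were closer than any other pair in a group: the SD of their difference over genes was 0.039, against a next lowest of 0.196 and a median of 0.438 over 42 pairs. Without counts, whether they are 1 library could not be tested, and they were kept as 2. Library codes ran from 5 to 42 for 11 DP, 10 SP and all 9 spleen libraries, and from 46 to 75 for 2 DP, 1 SP and all 10 DN libraries, so the code run and the DN subset largely coincide.

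In the deposited values the members showed little common movement over the untreated libraries. The median correlation between members over the 43 untreated libraries was 0.034 across 2016 pairs, with a range from -0.70 to 0.75, and it was 0.031 inside a subunit and 0.039 between subunits. These pairs share their libraries and are given as a description. The same correlation was not computed for all genes, so it is not shown to be particular to this family. The residuals of these values also held only 18 of 28 possible independent directions. The median of all 64 centred values stayed between -0.17, in a DN library of week 1, and 0.18, in an SP library of week 2. Single genes did vary: the range of the 15 group means had a median of 0.96 over the members, against 1.14 over all 10560 genes, while the spread inside groups was alike (median SD 0.276 for members, 0.275 for all genes). Mrps28, a small-subunit protein, had the widest range of group means (2.11), followed by Mrpl12, the stalk protein that helps recruit translation factors (1.63), and Mrps30. The narrowest ranges belonged to Mrpl40 (0.44), Mrps25 and Mrpl17 (0.49), which encode structural proteins of the large, small and large subunit.

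**Figure D1:**
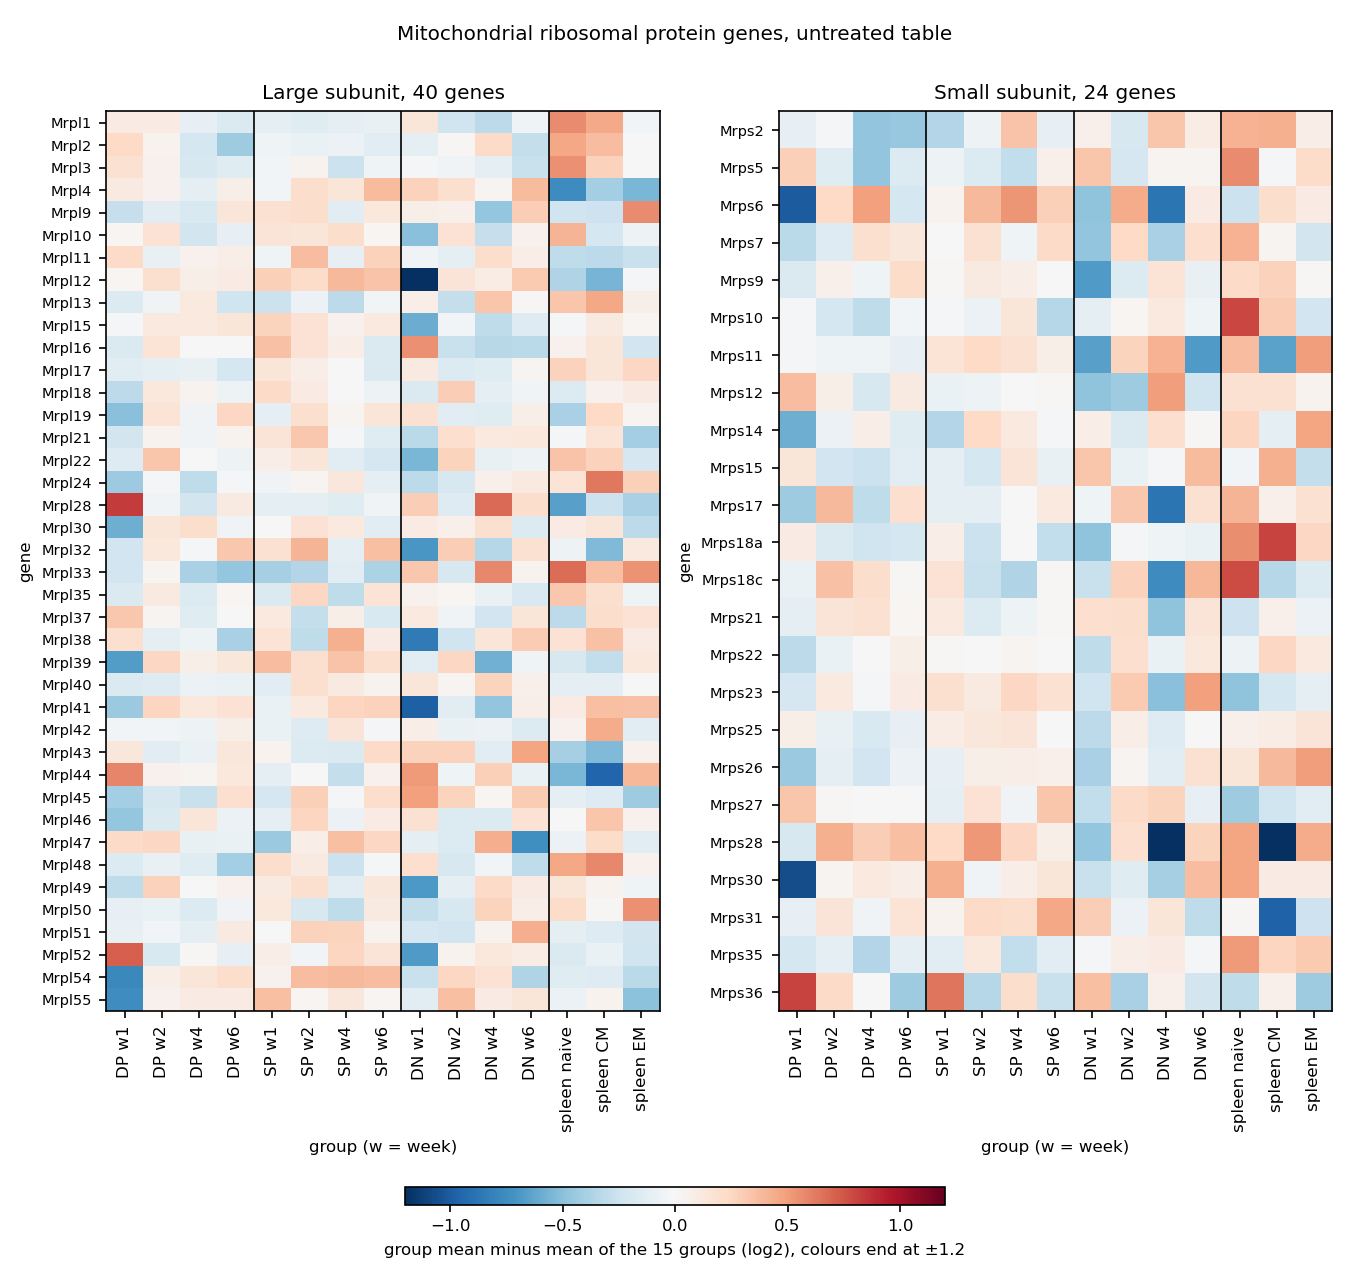
Group mean of each mitochondrial ribosomal protein gene minus its mean over the 15 untreated groups (log2, colour), with genes as rows and groups as columns, for the large subunit (left) and small subunit (right). No column is of a single colour; Mrpl12 in DN week 1 and Mrps28 in DN week 4 and spleen CM are among the darkest low cells, and Mrpl4 is low and Mrps10 high in spleen naive.

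In 10 of the 11 untreated comparisons a smaller share of members than of all genes passed the test, an adjusted p below 0.05 from limma. The exception was DN at week 6 against week 1, with 5 of 64 members (7.81%) against 5.79% of all genes. In total 22 of the 64 genes passed in none of the 11 comparisons, 11 in 1, 6 in 2 and 25 in 3 or more. Several of these comparisons share libraries. The same counts were not made for all genes, so they do not set the members apart.

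**Figure D2:**
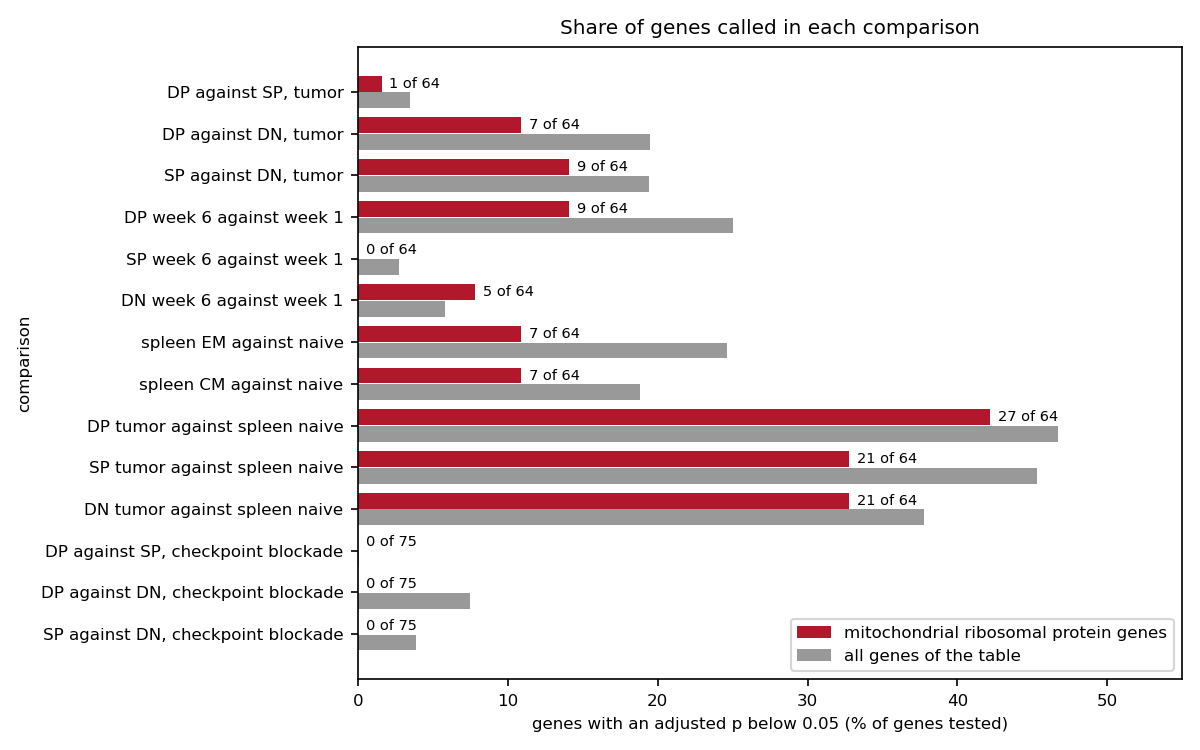
Percent of genes with an adjusted p below 0.05 in each comparison, for mitochondrial ribosomal protein genes (red, with the count) and for all genes of the table (grey). The red bar exceeds the grey one only for DN week 6 against week 1; the longest red bar, 27 of 64 (42.2%, against 46.7% of all genes), is DP tumor against spleen naive.

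Tumor CD8+ T cells differed from spleen naive cells in individual ribosomal proteins of both subunits. In DP 27 members passed (10 higher, 17 lower), against 46.7% of all genes (21.8% higher, 24.9% lower). In SP 21 passed (10 higher, 11 lower), against 45.3% (23.3% and 22%). In DN 21 passed (7 higher, 14 lower), against 37.8% (18.7% and 19.1%). For the large subunit the split was 7 higher and 8 lower in DP, 8 and 5 in SP, and 5 and 7 in DN, with median differences of -0.05, 0.12 and -0.06. For the 24 Mrps symbols it was 3 higher and 9 lower in DP, 2 and 6 in SP, and 2 and 7 in DN, with medians of -0.31, -0.21 and -0.34 beside -0.05, -0.02 and -0.05 over all genes. Among them Mrps18a, Mrps30 and Mrps36, which are not small-subunit proteins, gave 0 higher and 2 lower in DP, and 0 and 1 in each of SP and DN. The 14 small-subunit genes with bacterial counterparts gave 1 higher and 6 lower in DP (median -0.43), 0 and 4 in SP (median -0.24) and 0 and 5 in DN (median -0.47). The 7 mitochondrial additions to the small subunit gave 2 higher and 1 lower in each subset. The subunits were not tested against each other. The median of the 24 Mrps symbols was 0.21 to 0.26 in the 3 naive libraries and at most 0.15 in the libraries of any other group. These comparisons share the 3 naive libraries. Without naive replicate 1 the counts fell from 27 to 15 in DP and from 21 to 11 in DN, and without naive replicate 3 they were 17 and 13. All DN libraries and all spleen libraries lie in different runs of library codes. With the run as a term, which rests on the 2 DP libraries and 1 SP library with codes from 46, the DN count was 5. How many of all genes passed with that term is not given here, so this count does not set the members apart.

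Mrpl4, whose product lines the tunnel through which new chains leave the large subunit, was the clearest gene on the higher side. The 3 naive libraries had 3.48, 3.42 and 3.41. The 13 DP libraries ran from 4.04 to 4.41 with a median of 4.2, the 11 SP libraries from 4.07 to 4.78 with a median of 4.35, and the 10 DN libraries from 4.13 to 4.64 with a median of 4.43. Every tumor library was above every spleen library, since CM had 3.66, 3.79 and 3.88 and EM 3.61, 3.77 and 3.54. Against naive cells the difference was 0.78 in DP (SE 0.11, limma adjusted p = 4.54e-06), 0.93 in SP (SE 0.11, adjusted p = 6.14e-07) and 0.98 in DN (SE 0.11, adjusted p = 5.44e-07). CM and EM differed from naive by 0.34 and 0.20 and did not pass (adjusted p = 0.0839 and 0.302). Mrpl4 was higher than naive in each of the 12 tumor groups tested week by week. It lies at chr9:21002738-21008839 on the plus strand of GRCm38.

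Mrps10, a small-subunit protein with a bacterial counterpart, moved the other way. The naive libraries had 15.90, 15.72 and 15.94. DP ran from 14.28 to 15.09 with a median of 14.96, SP from 14.66 to 15.27 with a median of 15.02, and DN from 14.88 to 15.30 with a median of 15.06, so no tumor library reached a naive one. The differences from naive were -0.94 in DP (SE 0.17, limma adjusted p = 9.87e-05), -0.87 in SP (adjusted p = 0.000279) and -0.81 in DN (adjusted p = 0.000837). The EM libraries, at 14.75, 15.18 and 14.53, were also lower than naive, by -1.03 (SE 0.21, adjusted p = 0.00103). The CM libraries, at 15.31, 15.37 and 15.40, lay between and did not pass (-0.49, adjusted p = 0.111). Mrps10 (chr17:47368887-47381417, plus strand) was lower than naive in all 12 tumor groups by week.

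Mrps18a is a paralog of the bacterial S18 family whose product is a large-subunit protein, and it was lower than naive in all 12 tumor groups as well. Naive libraries had 8.08, 7.88 and 8.03, CM 8.34, 8.25 and 8.16 and EM 7.65, 7.76 and 7.65. DP ran from 7.0 to 7.67 (median 7.32), SP from 7.02 to 7.73 (median 7.22) and DN from 6.75 to 7.59 (median 7.36), all below the naive libraries. The differences were -0.69 in DP (SE 0.14, limma adjusted p = 0.000358), -0.68 in SP (adjusted p = 0.000553) and -0.72 in DN (adjusted p = 0.000465). Rsph9 lies on the opposite strand at the end of this gene, and its reads could be counted here if counting ignored strand, which is not stated. Its paralog Mrps18c, a small-subunit protein, differed from naive by -0.90 in SP (adjusted p = 0.00334) and -0.87 in DN (adjusted p = 0.00558). With the code run as a term the DN difference was -0.72 for Mrps18c and -0.46 for Mrps18a, and neither passed (adjusted p = 0.143 and 0.0956).

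Mrpl33, a small large-subunit protein near the tRNA exit site, was lower in the tumor subsets than in naive cells. The naive libraries had 7.80, 7.74 and 7.80. DP ran from 6.34 to 7.53 with a median of 6.78, and SP from 6.41 to 7.09 with a median of 6.78, below naive in every library. The difference was -0.93 in DP (SE 0.18, limma adjusted p = 0.000207) and -0.98 in SP (SE 0.18, adjusted p = 0.00015). DN ran from 6.78 to 7.72 with a median of 7.31 and differed by -0.48 (adjusted p = 0.042). By week Mrpl33 was lower than naive in 9 of the 12 tumor groups.

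Other members kept their call against naive cells in every fit that left out 1 library. On the lower side were Mrps5, on the messenger RNA entry side of the small subunit, by -0.69 in DP and -0.68 in SP (limma adjusted p = 0.00143 and 0.00187), and Mrps35, a mitochondrial addition to the small subunit, by -0.71 in DP (adjusted p = 0.00028). Mrpl3, a core large-subunit protein, was lower by -0.58 in DP, -0.63 in SP and -0.66 in DN (adjusted p = 0.00922, 0.00632 and 0.00564). On the higher side were Mrps23, a mitochondrial addition to the small subunit, by 0.48 in DP, 0.66 in SP and 0.50 in DN (adjusted p = 0.00867, 0.000811 and 0.0105), and Mrpl12, by 0.46 in DP and 0.67 in SP (adjusted p = 0.0062 and 0.000316). Mrpl44, which has a ribonuclease III-like fold, was higher by 0.75 in DP and 0.72 in DN (adjusted p = 0.00206 and 0.00465), and Mrpl43 by 0.62 in DN (adjusted p = 0.0031). With the code run as a term the DN difference of Mrpl44 was 0.66 and did not pass (adjusted p = 0.0925).

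**Figure D3:**
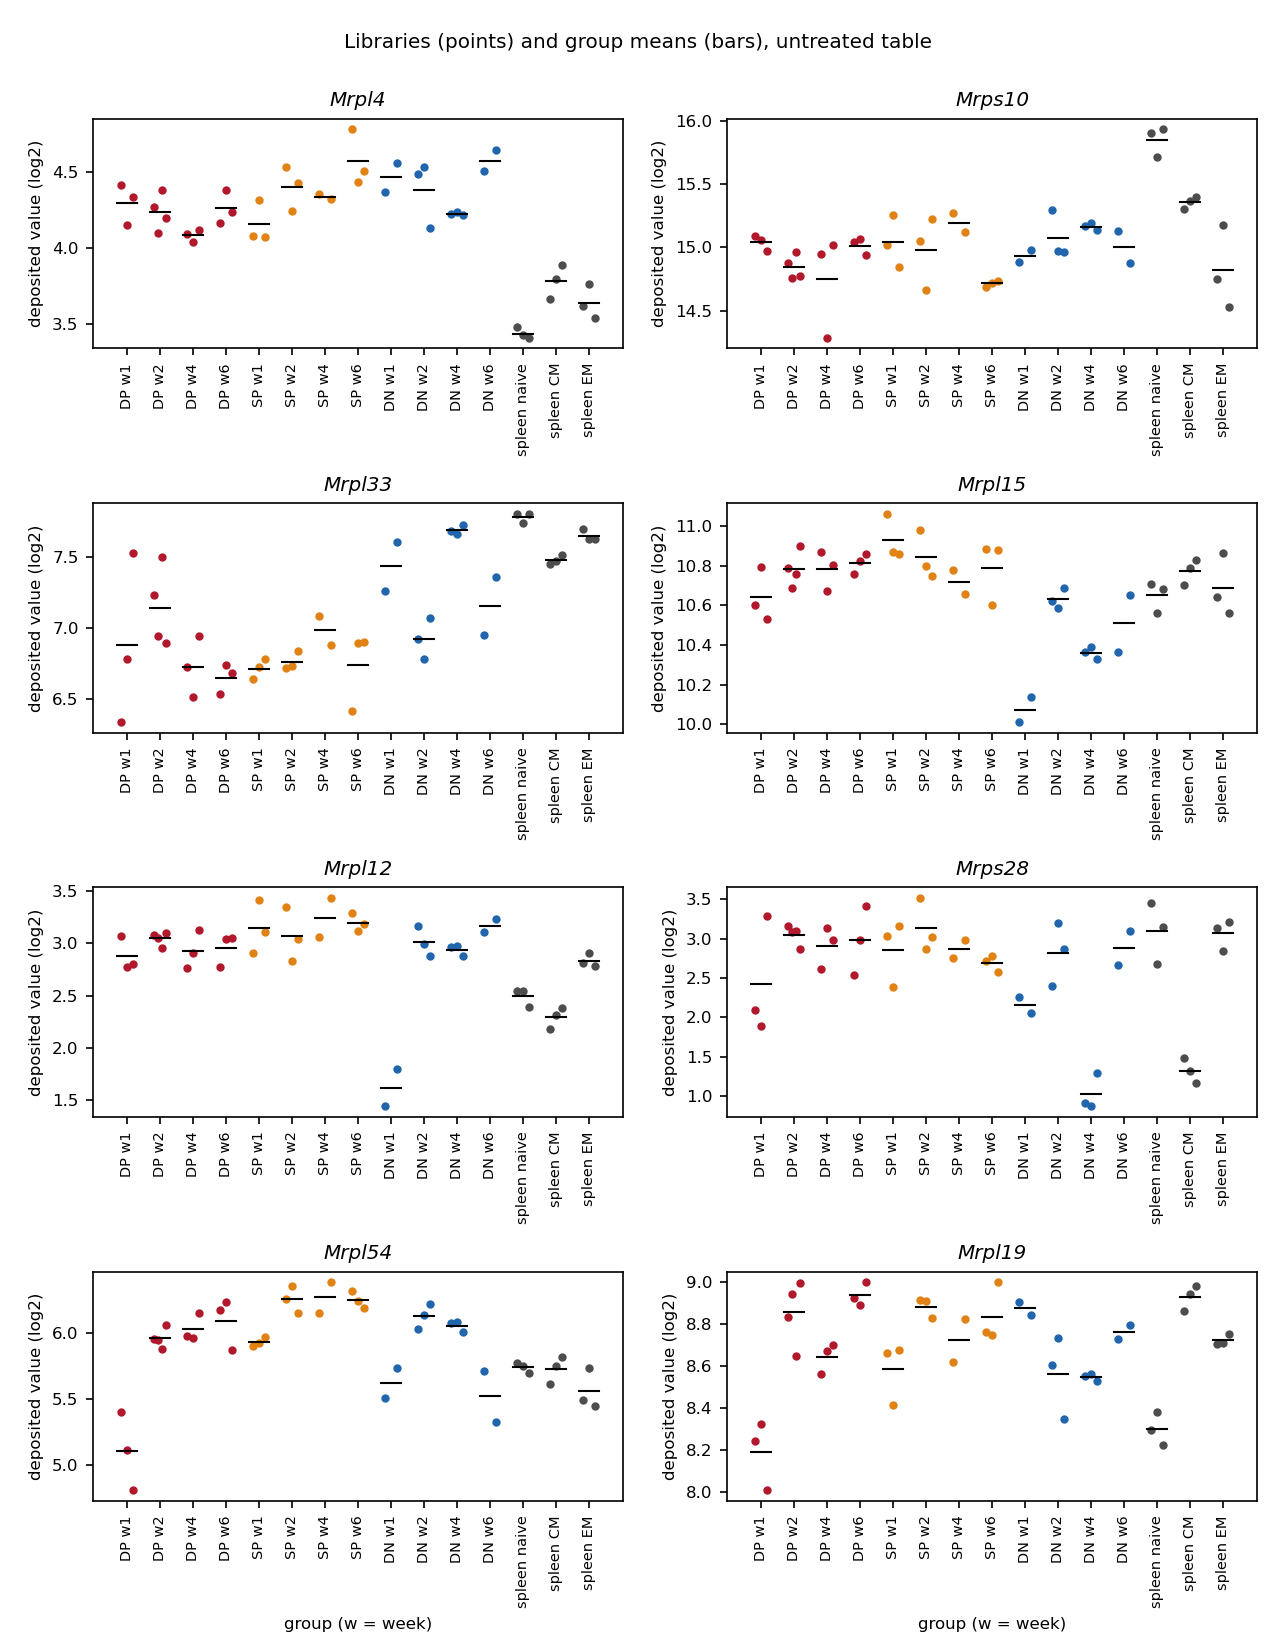
Deposited value (log2) of 8 members in every untreated library (points, coloured by DP, SP, DN and spleen) with group means (bars); each panel has its own vertical axis, which does not start at 0. Mrpl4 is lowest and Mrps10 highest in spleen naive, and Mrpl15 is low in DN of weeks 1 and 4. Mrpl12 is lowest in DN week 1 and also low in spleen CM and naive, and Mrps28 is low in DN week 4 and spleen CM. Mrpl54 is low in DP week 1, and Mrpl19 in DP week 1 and spleen naive.

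Promoter sequence was searched for motifs of factors known to act on genes of mitochondrial proteins. A window of the 250 bases before the start of transcription was found for 66 of the 75 genes in the set of RefSeq promoters used here (GRCm38.p6). The core of the ETS family, read by GABP (CCGGAAG on either strand), stood in 22.7% of the members' windows, 15.3% of the windows of genes in the untreated table and 7.05% of all 27025 windows. The motif of NRF1 stood in 13.6%, 9.12% and 3.86%, the YY1 motif AAGATGGCG in 3.03%, 1.31% and 0.607%, the E-box CACGTG in 7.58%, 8.84% and 6.05%, and the SP1 motif GGGCGG in 48.5%, 60.7% and 32.9%, all searched on both strands. The windows below belong to the genes that passed in the most untreated comparisons and had an entry in that set. Mrpl19 and Mrpl54 also qualified by their calls and had no entry in it. Capitals mark a motif match, and a match is a description of the letters only. Mrpl33 (chr5:31613701-31613950, plus strand) and Mrpl41 (chr2:24975099-24975348, minus strand) held none of the motifs searched. Mrpl12 (chr11:120484387-120484636, plus strand) held an NRF1 motif, and Mrps18c (chr5:100798509-100798758, plus strand) an E-box followed by an ETS core. The windows follow RefSeq starts, and GENCODE vM21 differs for some. It starts Mrpl33 at 31596935, so that window lies inside the gene there, and sequence before the GENCODE start was not searched. Its starts of Mrpl12 (120484613) and Mrps18c (100798627) fall inside their windows.
Mrpl33: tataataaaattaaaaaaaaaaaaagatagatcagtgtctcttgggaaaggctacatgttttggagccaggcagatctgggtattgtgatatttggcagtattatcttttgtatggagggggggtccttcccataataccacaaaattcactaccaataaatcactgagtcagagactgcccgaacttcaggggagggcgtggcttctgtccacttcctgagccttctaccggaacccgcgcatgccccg
Mrpl41: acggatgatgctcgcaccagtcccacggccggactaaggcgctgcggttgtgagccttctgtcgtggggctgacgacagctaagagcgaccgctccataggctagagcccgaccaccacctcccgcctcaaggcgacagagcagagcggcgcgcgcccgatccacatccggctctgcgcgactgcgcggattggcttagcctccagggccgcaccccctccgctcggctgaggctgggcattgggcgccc
Mrpl12: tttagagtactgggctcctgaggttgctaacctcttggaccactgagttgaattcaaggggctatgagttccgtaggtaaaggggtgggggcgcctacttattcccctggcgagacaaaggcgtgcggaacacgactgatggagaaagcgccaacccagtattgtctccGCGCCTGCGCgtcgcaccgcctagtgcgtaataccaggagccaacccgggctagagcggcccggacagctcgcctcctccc
Mrps18c: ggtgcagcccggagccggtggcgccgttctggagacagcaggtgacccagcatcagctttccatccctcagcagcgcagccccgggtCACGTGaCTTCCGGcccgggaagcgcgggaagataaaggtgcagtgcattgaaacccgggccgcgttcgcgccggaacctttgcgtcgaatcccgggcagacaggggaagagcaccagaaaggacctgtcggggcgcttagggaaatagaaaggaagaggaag

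Within the spleen, memory-type cells differed from naive cells in a few members. CM gave 7 members (2 higher, 5 lower), against 18.8% of all genes (10.1% higher, 8.70% lower), and EM 7 (4 higher, 3 lower), against 24.6% (12.6% and 12%). The large subunit gave 2 higher and 1 lower in CM and 4 higher and 0 lower in EM. The small subunit gave 0 higher and 4 lower in CM, and 0 higher and 3 lower in EM. The CM count was 4 without naive replicate 1, and the EM count 4 without EM replicate 3 and 3 without naive replicate 3. The 3 naive libraries are shared by both comparisons.

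Mrps28, a small-subunit protein with a bacterial S1-like fold, had 1.48, 1.32 and 1.16 in CM against 3.45, 2.68 and 3.14 in naive cells and 3.14, 2.85 and 3.21 in EM. The CM libraries were apart from both, and the CM difference from naive was -1.77 (SE 0.33, limma adjusted p = 0.000795). Mrps31, a mitochondrial addition, had 7.52, 7.45 and 7.36 in CM, 8.43, 8.41 and 8.44 in naive and 8.11, 8.27 and 8.10 in EM, a CM difference of -0.98 (SE 0.23, adjusted p = 0.00497). Mrps18c was lower by -1.13 in CM (adjusted p = 0.00866). Mrpl19, a large-subunit protein with a bacterial counterpart, was higher in CM, at 8.87, 8.94 and 8.98 against 8.29, 8.38 and 8.23 in naive. The difference was 0.63 (SE 0.12, limma adjusted p = 0.00123). By week Mrpl19 was also called higher than naive in 8 of the 12 tumor groups and lower in 0. In EM the gene Mrpl44 had 5.81, 5.58 and 5.92, above naive at 4.91, 4.86 and 4.71, a difference of 0.94 (SE 0.23, adjusted p = 0.00463). Mrpl44 in CM, at 4.42, 4.43 and 4.43, was below naive in each library. Mrpl9, a large-subunit protein with a bacterial counterpart, was higher in EM by 0.81 (adjusted p = 0.0142), a call lost without EM replicate 3 or naive replicate 3 (largest adjusted p = 0.0853). Besides Mrps10 in EM, the remaining calls in CM (3 genes) had a limma adjusted p from 0.018 to 0.0472. Those in EM (4 genes, among them Mrpl19, higher by 0.42) ran from 0.0166 to 0.0431. Each of these calls was lost without at least 1 library.

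The subset comparisons inside the tumor asked how CD103+CD69+ and CD69+ cells differ from cells without either protein. DP against DN gave 7 members (4 higher, 3 lower), against 19.5% of all genes (8.81% higher, 10.7% lower), with a members' median of 0.01. SP against DN gave 9 (8 higher, 1 lower), against 19.4% (11% and 8.32%), with a median of 0.07. Both comparisons share the 10 DN libraries. With the code run as a term each count fell to 1 member, while the differences of the members described below stayed about as large or grew. The share of all genes called with that term is not given here, so the fall does not set the members apart. Inside codes from 46 alone, DP was compared with DN at weeks 2 and 6 with 2 against 5 libraries. There 0 members passed limma's test, beside 333 of all 10560 genes, and 5 members had an unadjusted p below 0.05. For SP against DN at week 6 only 1 SP library was left, against 2 DN libraries. The members' median difference was -0.04, beside -0.02 over all genes.

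Mrpl15, a large-subunit protein with a bacterial counterpart, was the member higher in DP and SP than in DN that remained with the code run as a term. DN libraries had 10.01 and 10.14 at week 1, 10.62, 10.59 and 10.69 at week 2, 10.37, 10.39 and 10.33 at week 4, and 10.37 and 10.65 at week 6. DP ran from 10.53 to 10.90 with a median of 10.79, and SP from 10.60 to 11.06 with a median of 10.86. The DN libraries of weeks 1 and 4 lay below every DP and SP library, and those of week 2 overlapped them. The difference was 0.36 for DP (SE 0.07, limma adjusted p = 0.000609) and 0.42 for SP (SE 0.07, adjusted p = 0.000235). With the code run as a term it was 0.46 and 0.54 (adjusted p = 0.0238 and 0.0194). Without week 4 it was 0.34 and 0.45 (adjusted p = 0.0144 and 0.0042). Inside codes from 46 the DP difference was 0.31 and did not pass (adjusted p = 0.207). Mrpl15 lies at chr1:4773206-4785739 on the minus strand.

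Among the other members that separated DN, Mrpl12 and Mrps28 lost most of their difference when 1 week was left out. Mrpl12 had 1.44 and 1.79 in DN at week 1 and 2.88 to 3.23 in the other 8 DN libraries, which overlap DP (2.76 to 3.12) and SP (2.83 to 3.44). Its difference was 0.27 for DP (limma adjusted p = 0.0324) and 0.48 for SP (adjusted p = 0.000937); without week 1 the values were -0.06 and 0.13 and neither passed. Mrps28 had 0.92, 0.87 and 1.30 in DN at week 4 and 2.05 to 3.19 in the other DN libraries, against 1.89 to 3.41 in DP and 2.38 to 3.52 in SP. Its difference was 0.62 for DP and 0.67 for SP (adjusted p = 0.0154 and 0.0136), and without week 4 it was 0.20 and 0.28 (adjusted p = 0.635 and 0.481). Mrpl33 was lower in DP by -0.45 (SE 0.12, adjusted p = 0.00961) and in SP by -0.50 (SE 0.12, adjusted p = 0.00692); DN at week 4, with 7.68, 7.66 and 7.72, was above every DP and SP library. Without week 4 the Mrpl33 differences were -0.28 and -0.43 and did not pass (adjusted p = 0.255 and 0.0906). Mrpl41, a mitochondrial addition to the large subunit, was higher by 0.40 in DP and 0.52 in SP (adjusted p = 0.00465 and 0.00106), with 1.75 and 1.76 in DN at week 1. Without week 4 its differences were 0.34 and 0.45 (adjusted p = 0.0836 and 0.036). Mrpl39, a large-subunit protein related to threonyl-tRNA synthetase, was higher by 0.40 in SP (adjusted p = 0.0103), and by 0.23 without week 4 (adjusted p = 0.289). With the code run as a term the DP and SP differences were 0.32 and 0.54 for Mrpl12, 0.67 and 0.73 for Mrps28, -0.47 and -0.52 for Mrpl33, and 0.47 and 0.59 for Mrpl41, and the SP difference was 0.38 for Mrpl39. They were close to the values without the term or larger, and none passed (adjusted p from 0.0823 to 0.329).

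By week, the calls that separated DN from the CD69+ subsets stood mostly in weeks 1 and 4, for members and for all genes alike. DP against DN gave 11 at week 1 (22.7% of all genes), 0 at week 2 (0.814%), 10 at week 4 (21.9%) and 0 at week 6 (3.20%). SP against DN gave 4 (7.26%), 0 (0.464%), 6 (13.6%) and 1 (3.02%). At an unadjusted limma p below 0.05 the counts of 0 were 4 and 7 for DP at weeks 2 and 6 and 5 for SP at week 2. At week 1 the DP count was 3 without DN week 1 replicate 1, and the SP count 2 without that library and 8 without DN week 1 replicate 2. At week 4 the SP count was 1 without SP week 4 replicate 2, and at week 6 it was 0 without DN week 6 replicate 2 or SP week 6 replicate 1. The counts of 0 rose to 1 in DP at week 6 without DP week 6 replicate 3, and in SP at week 2 without DN week 2 replicate 2.

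Pooled over weeks, few genes of the whole table, members included, separated DP from SP, the CD69+ subsets that differ in CD103. Only 1 of 64 members passed, on the lower side, against 3.48% of all genes (0.767% higher, 2.72% lower), and 8 had an unadjusted p below 0.05. That gene was Mrpl54, a large-subunit mitochondrial addition. DP had 5.40, 5.11 and 4.80 at week 1 and 5.87 to 6.24 at weeks 2 to 6, and SP had 5.90, 5.92 and 5.97 at week 1 and 6.15 to 6.39 later. The pooled difference was -0.38 (SE 0.07, limma adjusted p = 0.00608). Without week 1 it was -0.23 (adjusted p = 0.0478, and 0.118 with the ratio of degrees of freedom of the whole table). On the higher side the smallest p belonged to Mrpl44, at 0.29 (adjusted p = 0.188). By week DP against SP gave 7 members at week 1 (2 higher, 5 lower, against 17.4% of all genes, 5.92% higher and 11.5% lower), 0 at week 2 (0%), 0 at week 4 (0.142%) and 0 at week 6 (0%), with 6, 2 and 1 at an unadjusted p below 0.05 in the last 3. The pooled count of 1 was 2 when SP week 2 replicate 2, DP week 2 replicate 2 or DP week 1 replicate 1 was left out, and 3 without DP week 1 replicate 2 or 3. The week 1 count was 12 without DP week 1 replicate 2 and 3 without SP week 1 replicate 1.

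At week 1 the members lower in DP than in SP were led by Mrps30, by -1.50 (limma adjusted p = 0.00488), Mrpl39, by -1.04 (adjusted p = 0.000801), Mrps6, a small-subunit protein with a bacterial counterpart, by -1.04 (adjusted p = 0.0226), and Mrpl54, by -0.83 (adjusted p = 0.000619). The higher ones were Mrpl28, by 0.94, and Mrpl44, by 0.71 (adjusted p = 0.0418 and 0.0383). In the same libraries 11 of 15 T-cell identity genes were lower in DP than in SP and 0 were higher, with a median of -0.66. At weeks 2 and 6 no T-cell identity gene passed in that comparison and at week 4 1 did. Their part in the members' values was not tested.

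Between week 1 and week 6, members passed the test in DP and DN, and none did in SP. DP gave 9 (6 higher, 3 lower) against 25% of all genes (15.6% higher, 9.37% lower). SP gave 0 in limma against 2.72% (1.34% and 1.37%), with 5 at an unadjusted p below 0.05. DN gave 5 (5 higher, 0 lower) against 5.79% (4.98% and 0.805%). The difference between subsets in this change was tested only as weeks 2 to 6 against week 1. The DP count was 14 without DP week 1 replicate 3. The DN count was 1 and 8 without DN week 1 replicates 1 and 2, and 2 and 3 without DN week 6 replicates 1 and 2. Setting each library to the same median over all genes moved the members' median from 0.09 to -0.01 in DP and from 0.12 to 0.00 in DN, and split the DP calls into 5 higher and 4 lower.

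In DP the members' calls between neighbouring weeks fell on the step from week 1 to week 2, as did most calls over all genes. Week 2 against week 1 gave 12 members (10 higher, 2 lower, against 34% of all genes, 17.9% higher and 16.1% lower), week 4 against week 2 gave 0 (0.833%) and week 6 against week 4 gave 0 (1.30%), with 2 at an unadjusted limma p below 0.05 in each of the last steps. Mrpl54 was higher at week 6, at 6.17, 6.24 and 5.87, than at week 1, at 5.40, 5.11 and 4.80, by 0.99 (SE 0.15, limma adjusted p = 5.62e-05). Mrpl19 had 8.25, 8.32 and 8.01 at week 1 and 8.92, 8.89 and 9.0 at week 6, a rise of 0.75 (SE 0.12, adjusted p = 0.000189). Mrpl39 had 9.04, 9.14 and 8.19 at week 1 and 9.72, 9.55 and 9.54 at week 6, a rise of 0.81 (adjusted p = 0.00389). Each of these genes had no overlap between the weeks. Mrps36, the dehydrogenase component, was lower at week 6, at 6.01, 5.95 and 5.79 against 7.06, 7.99 and 6.44, by -1.24 (adjusted p = 0.00452). Mrpl52, a mitochondrial addition to the large subunit, was lower by -0.82 (adjusted p = 0.0107, lost without DP week 1 replicate 3 at 0.062). In the same comparison 9 of 15 T-cell identity genes were higher and 4 of 6 epithelial genes were lower. The part of these lists in the members' values was not tested.

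In DN the clearest change was in Mrpl12, from 1.44 and 1.79 at week 1 to 3.11 and 3.23 at week 6, a rise of 1.55 (SE 0.20, limma adjusted p = 0.000395). Mrpl41 went from 1.75 and 1.76 to 2.79 and 2.85, a rise of 1.07 (adjusted p = 0.00788, lost without DN week 1 replicate 1 at 0.0606). Mrpl51, another large-subunit gene, rose by 0.63 (adjusted p = 0.0198). All 5 called members belonged to the large subunit. Here 4 of 6 epithelial genes were higher at week 6 and 0 lower, and their part was not tested. Between neighbouring weeks DN gave 4 members (3.12% of all genes), 11 (8.32%) and 7 (8.92%), where SP gave 0, 0 and 0 (2.67%, 0% and 0.312%), with 7, 4 and 1 at an unadjusted limma p below 0.05. In SP the smallest p from week 1 to week 6 belonged to Mrpl4 on the higher side (0.42, adjusted p = 0.0984) and Mrps36 on the lower (-0.91, adjusted p = 0.107). The DN counts were 1, 9 and 2 without DN week 1 replicate 1, DN week 1 replicate 2 or DN week 2 replicate 3 for the first step. For the second step they were 5 without DN week 2 replicate 1 or either of DN week 4 replicates 1 and 2, and 7 without DN week 4 replicate 3. For the third step they were 4 and 3 without DN week 4 replicates 1 and 2, and 3 and 2 without DN week 6 replicates 1 and 2.

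The messenger RNAs that these ribosomes translate were lower in DP and in SP than in DN. The untreated table held 8 of them: mt-Atp8, mt-Co1, mt-Cytb, mt-Nd1, mt-Nd2, mt-Nd4, mt-Nd5 and mt-Nd6. All 8 were lower in DP than in DN, by -1.04 to -0.75 (median -0.90), and all 8 were lower in SP than in DN (median -0.92). mt-Nd2, a subunit of complex I, differed by -0.90 in DP (SE 0.10, limma adjusted p = 4.44e-06) and -0.92 in SP (adjusted p = 6.56e-06). mt-Atp8, a subunit of ATP synthase, differed by -1.04 and -1.03 (adjusted p = 6.45e-06 and 1.46e-05). Between DP and SP 0 of 8 passed in limma, with 0 at an unadjusted p below 0.05. With the code run as a term 7 of 8 remained lower in each comparison (medians -0.88 and -0.97), and without week 1 all 8 did in each (medians -1.15 and -1.03). Inside codes from 46 the count was 7 for DP and 6 for SP (medians -1.15 and -1.68). By week, limma called 0 of 8 in DP against DN at weeks 1 and 2 (0 and 7 at an unadjusted p below 0.05) and 8 at weeks 4 and 6. In SP against DN it called 0, 1, 1 and 8, with 8 unadjusted at week 1.

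Per library, the median of the 8 centred values was 1.44 and 1.46 in DN at week 6, 0.76 and -0.03 in DN at week 1, and -0.12 to 0.14 in DN at weeks 2 and 4. In DP it was 0.19 to 0.42 at week 1 and -1.22 to -0.89 at week 4. Spleen naive stood at 0.55 to 0.75 and CM at 1.09 to 1.87. CM was higher than naive for 5 of 8 and lower for mt-Nd6, which is read from the opposite strand of the mitochondrial genome (-1.38, limma adjusted p = 0.00286). EM was lower than naive for 6 of 8, DP for 7, SP for 8 and DN for 2. Over the same libraries the median of the 64 ribosomal protein genes ran only from -0.17 to 0.18, although a median over 64 genes varies less than a median over 8.

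**Figure D4:**
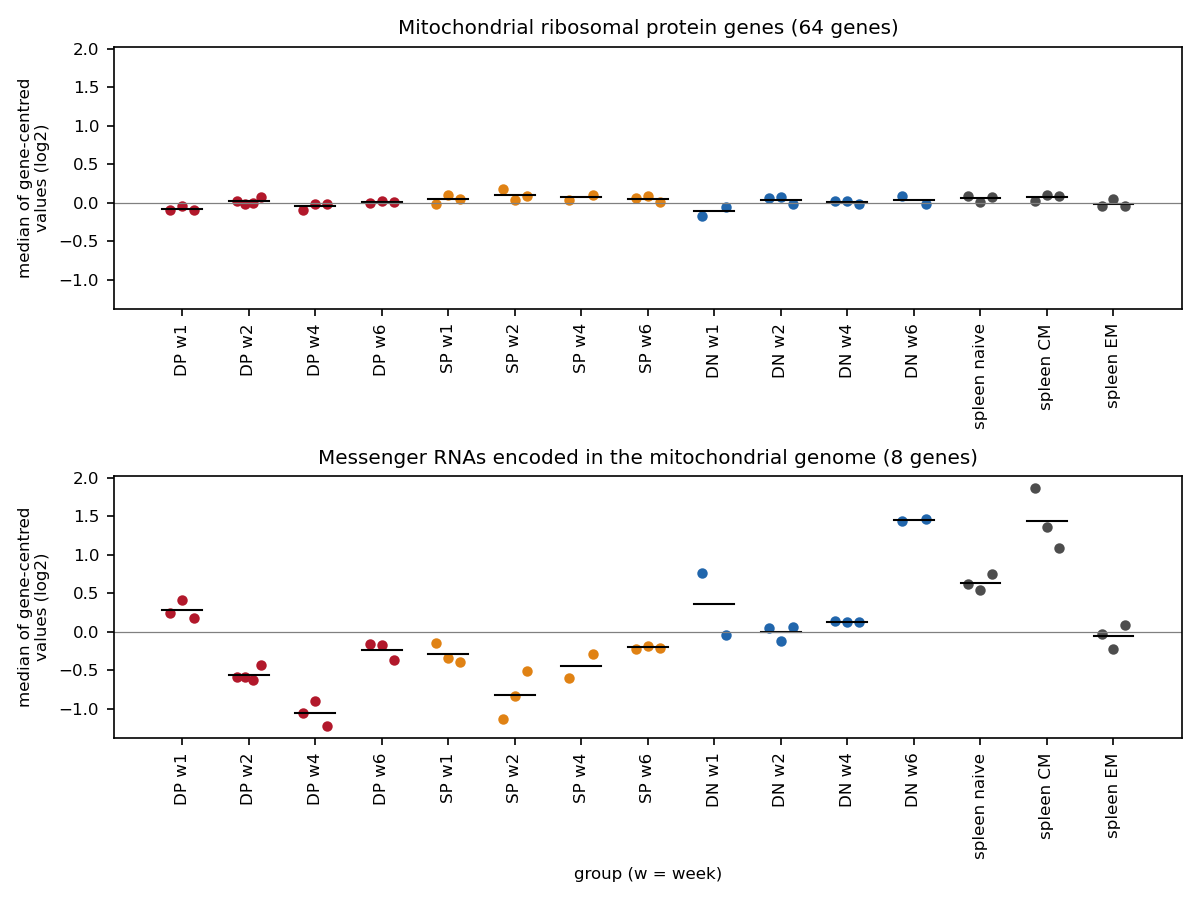
Median of gene-centred values (log2) in each untreated library (points) with group means (bars), for 64 mitochondrial ribosomal protein genes (top) and 8 messenger RNAs encoded in the mitochondrial genome (bottom), on the same vertical scale. The upper points stay between -0.17 and 0.18, while the lower ones run from -1.22 in DP week 4 to 1.87 in spleen CM.

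Other genes around the mitochondrial ribosome were counted in the same way, and their smaller counts against DN than against naive cells were shared by all genes. Of all genes 19.5% passed in DP and 19.4% in SP against DN. Against naive cells 46.7% passed in DP, 45.3% in SP and 37.8% in DN. Nuclear-encoded subunits of oxidative phosphorylation, the partners of the mitochondrially encoded proteins, gave 6 of 65 higher and 0 lower in DP than in DN. In SP they gave 9 and 0, and with the code run as a term 0 in each. Of all genes 8.81% were higher and 10.7% lower in DP than in DN, and 11% and 8.32% in SP. Against naive cells these subunits gave 22 higher and 4 lower in DP, 23 and 3 in SP and 12 and 3 in DN. The shares of all genes were 21.8% higher and 24.9% lower in DP, 23.3% and 22% in SP, and 18.7% and 19.1% in DN. Assembly and rRNA modification factors of the mitochondrial ribosome gave 2 of 18 higher and 8 lower in DP, 1 and 9 in SP and 1 and 6 in DN against naive. Mitochondrial tRNA synthetases gave 3 of 19 higher and 5 lower, 5 and 3, and 3 and 3, and translation factors 1 of 9 higher and 2 lower, 1 and 3, and 1 and 1. Of 5 mitochondrial ribosome proteins with other symbols 3 were lower in DP, 1 in SP and 2 in DN. Import proteins of the TOM and TIM complexes gave 1 of 17 higher and 2 lower in DP. Genes of mitochondrial DNA maintenance and transcription gave 1 of 11 higher and 5 lower in DP.

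The cytosolic ribosome gave a different count from the mitochondrial one. Against naive cells 49 of 73 cytosolic ribosomal protein genes were lower in EM and 0 higher (median -0.61). In DP 50 were lower and 1 higher (median -0.48), in SP 36 and 3, and in DN 42 and 3. In CM 1 was lower and 2 higher. The medians of all members in the same comparisons were -0.09 in EM, -0.09 in DP, 0.00 in SP, -0.15 in DN and 0.00 in CM. In EM and DP the members as a whole thus had no median as low as that of the cytosolic genes. The small-subunit genes with bacterial counterparts, described above, came close to it in DP. The 2 lists differ in length and were not tested against each other. Of 25 proliferation genes 24 were higher and 0 lower in each tumor subset than in naive cells.

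Under checkpoint blockade at day 40 no member passed in any comparison of the subsets, and that count depended on the degrees of freedom. DP against DN gave 0 of 75, against 7.49% of all 13458 genes, with 10 at an unadjusted p below 0.05. SP against DN gave 0, against 3.83%, with 2 unadjusted, and DP against SP gave 0, against 0.0372%, with 2 unadjusted. The members' medians were -0.01, 0.03 and -0.05. Only 8 libraries entered, and their residuals held 2 independent directions. Setting each library to the same median gave 8 members in DP against DN and 1 in SP against DN; that step also raised the number of residual directions to 3. With ordinary degrees of freedom the counts were 28 for DP against DN, 26 for SP against DN and 17 for DP against SP, and with quantile normalization 27, 24 and 17. Without DP replicate 3 the DP against DN count was 2. The shares of all genes called under these altered settings are not given here, so these counts do not set the members apart.

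The members nearest to the threshold are given by library. Mrpl27, a large-subunit protein close to the peptidyl transferase centre, had 5.19, 5.18 and 5.20 in DP, 5.84, 5.99 and 5.73 in SP and 6.28 and 6.33 in DN, with no overlap between subsets. Its difference was -1.11 for DP against DN (limma adjusted p = 0.0555) and -0.66 for DP against SP (adjusted p = 0.333). Mrps18c had 7.73, 7.65 and 7.38 in DP, 6.94, 7.21 and 7.25 in SP and 6.62 and 6.72 in DN, and its difference was 0.91 for DP against DN (adjusted p = 0.0722). Mrpl11, a protein at the base of the stalk, had 7.12, 7.13 and 7.14 in DP, 7.31, 7.22 and 7.33 in SP and 6.70 and 6.67 in DN, and differed by 0.60 for SP against DN (adjusted p = 0.127). Mrps30 had 7.98, 7.94 and 7.80 in DP, 7.87, 7.97 and 8.05 in SP and 8.29 and 8.33 in DN, and differed by -0.35 for SP against DN (adjusted p = 0.258). After median rescaling the adjusted p of Mrpl27 and Mrps18c for DP against DN was 0.00858 and 0.0249, and that of Mrpl11 for SP against DN 0.0264. The mitochondrially encoded messenger RNAs, 12 in this table, were lower for 2 in SP than in DN, among them mt-Nd2 (-1.03, adjusted p = 0.0315), for 1 in DP than in DN, and for 0 between DP and SP.

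**Figure D5:**
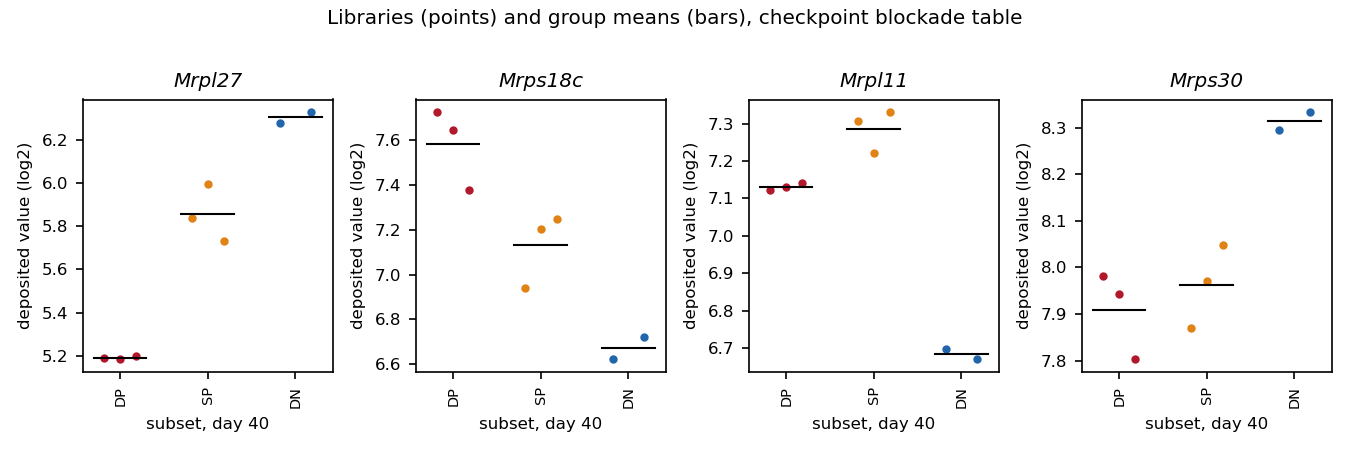
Deposited value (log2) of 4 members in every library of checkpoint blockade at day 40 (points) with group means (bars), each panel on its own vertical axis, which does not start at 0. The DN libraries stand apart from DP and SP in all 4 panels, and none of the differences passed the test.

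The genes lie on 17 chromosomes, with at most 10 on 1, so they do not form a single cluster. Some are neighbours: Mrpl46 (chr7:78775236-78783531, minus strand) and Mrps11 (chr7:78783119-78792989, plus strand) overlap at their starts. Since QuantSeq reads the ends of transcripts, neighbours that overlap the last 1000 bases matter: 15 members had another gene there on the opposite strand and 4 on the same strand in GENCODE vM21. Mrpl33 (chr5:31596935-31664384) is 1 of the latter, overlapping Gm43809. Mrpl12 (chr11:120484613-120489065) overlaps Gm16755 and Mrpl19 (chr6:81957851-81965958) overlaps Gcfc2, both on the opposite strand. A named pseudogene exists for 3 members, Mrpl23, Mrpl48 and Mrps36. Whether counting used strand is not stated in the sources used here, so the values of these members may include reads of their neighbours or copies.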

How the data were processed

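mRNA of sorted mouse CD8+ T cells was profiled with QuantSeq 3' mRNA-Seq FWD from 10 ng of total RNA, with 75 bp single-end reads from a NextSeq500, per the labels' protocols. The submitters' processing notes name HISAT2, HTSeq and mm10 and give no versions. The values deposited by the authors are normalized and were taken to be log2, since some are negative and their span is that of logs; the log base is an inference, and the normalization method is not given in the sources used here. Every column of per-sample values matched a sample. Read depth is unknown, so precision was judged from the libraries alone.

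Each table was fitted apart with limma 3.58.1 (R 4.3.3, trend and robust options, statmod 1.5.0), with 1 mean for each group, 1 spread shared by all groups, and weeks weighted equally. Adjusted p-values (Benjamini-Hochberg) cover all genes of the table, and a gene was called below 0.05. The residuals had a rank of 18 where 28 was possible in the untreated table and 2 where 5 was possible in the checkpoint table. Residual degrees of freedom were therefore multiplied by 0.6429 and 0.4, and variances divided by the same ratios. The fit was tested on simulated data.

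Genes were named by a rule: for each comparison, subunit and direction up to 4 called members with the largest differences, and otherwise the smallest p in a direction. The widest and narrowest ranges and genes of a single table were named too, and promoters were taken for the members called in the most comparisons. Not every gene the rule allows is printed. The members, gene lists and comparisons were chosen with earlier results of these data known. Alternatives were median rescaling, quantile normalization, ordinary degrees of freedom, no trend or robust option, the 25% of genes with the lowest means left out, a replicate block, the library code run as a term, no week 1, and each library left out. Those chosen after the data were seen were the quantile, block and week 1 alternatives with the deposited ratio of degrees of freedom, a comparison inside codes from 46, DN week 4 replicates 1 and 2 averaged, and no week 4. Counts of reads were not analysed here. Promoters and positions came from RefSeq (GRCm38.p6) and GENCODE vM21 (GRCm38).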

Additional observations from a re-analysis of the deposited data

Results flagged for a closer look

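The change of a subset difference after week 1 was tested as an interaction in limma: the mean difference of weeks 2 to 6 minus the difference at week 1. For DP against SP 4 members passed (14.7% of all genes did): Mrps30 at 1.51 (adjusted p = 0.0149), Mrpl39 at 0.95 (0.00703), Mrpl54 at 0.60 (0.0228) and Mrpl52 at -0.85 (0.0307). For DP against DN 9 members passed (25.8% of all genes). Mrpl19 stood at 0.87 (0.000431), Mrpl39 at 0.83 (0.0152), Mrpl54 at 0.64 (0.0147) and Mrps21 at 0.48 (0.0393). On the lower side Mrpl52 stood at -1.56 (0.000429), Mrpl12 at -1.33 (0.000125), Mrpl38 at -1.29 (0.0102), Mrps27 at -0.77 (0.0425) and Mrps18a at -0.74 (0.0188). For SP against DN 2 members passed (6.53% of all genes), Mrpl12 at -1.39 (0.000674) and Mrpl15 at -0.58 (0.0373). The comparisons share week 1 libraries. The counts of 4, 9 and 2 ran from 3 to 9, from 4 to 13 and from 1 to 6 as single libraries were left out. The DP against SP count was 8, 9, 7 and 7 without DP week 1 replicate 1, DP week 1 replicate 2, DP week 2 replicate 3 and SP week 1 replicate 2. The DP against DN count was 4 without DN week 1 replicate 1. The SP against DN count was 1 without DN week 1 replicate 1 or SP week 1 replicate 1, 6 without DN week 1 replicate 2, and 4 without DN week 2 replicate 2 or DN week 4 replicate 3. In the same test 7 of 15 T-cell identity genes were higher for DP against SP and 8 for DP against DN, and their part was not tested.

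In DP at week 2, the only group of 4 libraries, a library stood apart from the other 3 for 2 of 43 named members: Mrpl40 had 1.91 in replicate 2 against 2.13 to 2.14, and Mrpl45 had 6.87 in replicate 3 against 7.14 to 7.18. Chance flags about 1 in 20 such groups.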

How the results depend on the processing

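With ordinary residual degrees of freedom the counts of called members were 6 for DP against SP, 14 for DP against DN, 15 for SP against DN, 20, 3 and 10 for week 6 against week 1 in DP, SP and DN, 13 for EM, 15 for CM and 33 for DN against naive, and 17, 28 and 26 in the checkpoint table for DP against SP, DP against DN and SP against DN. Quantile normalization, which restored the residual rank to 28 and 5, gave 5, 15, 17, 20, 3, 11, 13, 14, 35, 17, 27 and 24 in that order. Its splits were 1 higher and 4 lower for DP against SP, 11 and 4 for DP against DN, 8 and 12 for DP and 7 and 4 for DN over time, and 6 and 8 for CM. With the deposited ratio kept it moved only the DN count over time, to 3, and split DP against DN into 5 higher and 1 lower. Without the 25% of genes with the lowest means, which tests fewer members, counts were 4 for DP against DN, 5 for SP against DN, 2 for DN over time, 4 for CM, 17 for DP and 12 for DN against naive. The code run as a term gave 1, 1 and 5 for DP and SP against DN and DN against naive. Median rescaling gave 8 and 1 for DP and SP against DN under checkpoint blockade. Without week 1 DP against SP gave 3 and DP against DN 13, and with the deposited ratio DP against SP gave 0. Leaving out single libraries gave 15 to 31 for DP and 11 to 25 for DN against naive. Without week 4 DP and SP against DN gave 3 and 4. Mrpl12 reversed to -0.062 in DP against DN without week 1. Averaging DN week 4 replicates 1 and 2 moved none of the 11 untreated counts by over 1.5 times, and dropping the trend and robust options none of 14. Why the counts moved was not tested except where the setting itself changes the rank or the genes tested. The shares of all genes called under these settings are not given here, so the moves do not set the members apart.

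Among untreated libraries 9 of 39 same-numbered pairs and 19 of 84 differently numbered pairs had a correlation above 0.1, and under checkpoint blockade 4 of 7 and 7 of 14 did. Between untreated DP and SP every same-numbered pair was above 0, from 0.01 at week 6 to 0.86 at week 4. SP at week 4 has only 2 libraries, so its deviations mirror each other and the values there come with opposite signs. Differently numbered untreated pairs of DP and SP ran from -0.86 to 0.32. Under checkpoint blockade the same-numbered pairs of DP and SP had -0.99, 0.36 and -0.61, and differently numbered ones ran from -0.97 to 0.99. The sample titles give replicate numbers and do not say that they mark pairs. The main fit did not take them as pairs, so it may ignore a pairing of DP with SP. A replicate block within a week gave 9 for DP against SP, 13 for DP against DN, 15 for SP against DN, 13 for EM, 17 for CM and 2 for DP against DN under checkpoint blockade. Its residual rank was full in the untreated table, at 17 of 17. With the block and the deposited ratio the checkpoint count was 1, and the others stayed within 1.5 times. The shares of all genes called with the block are not given here either.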
